A study of Bombus lucorum with 81 samples.

Results

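The 32 genes described here belong to N-glycan biosynthesis, the pathway that builds a branched sugar chain, attaches it to asparagines of secreted and membrane proteins, and then remodels it. They were taken from the study's pathway analysis of workers of the bumblebee Bombus lucorum, as all genes listed for the KEGG pathways N-glycan biosynthesis (29 genes) and various types of N-glycan biosynthesis (17 genes, 14 of them in both) in 6 complete lists. All 32 were found among the 10581 genes of the count table, and all 32 passed the filter on low counts in every comparison made below. The genes were selected on expression differences in 4 comparisons of the same bees: mid-elevation against lowland, highland against mid-elevation, warm against cool sampling, and grazed against ungrazed sites. For these 4 comparisons the values of the genes are therefore a description without a test. Highland against lowland is the sum of the belt comparisons among them. Its edgeR calls are given below, also as a description, since they are not independent of the choice of the genes. 12 of the genes were listed in all 4 comparisons, 8 in 3, 6 in 2 and 6 in 1. A name was at hand for 4 of the 32 genes, and the other 28 are given by their identifiers alone.

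As background, the chain is first assembled on dolichol, a lipid of the endoplasmic reticulum membrane. A glucosyltransferase caps it, the oligosaccharyltransferase complex moves it as a block onto nascent proteins, and glucosidases then trim it as part of the folding control of glycoproteins. In the Golgi, insects shorten most chains further and may add fucose to the core, and tissues with a large secretory output, such as fat body, glands and midgut, depend heavily on the route.

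The study sequenced 81 foraging workers from 16 grassland sites in and near the Berchtesgaden National Park, with thorax and abdomen of each bee as 1 library after head and gut had been cut away in the field. The lowland belt comprised 30 bees from 6 sites (641 to 987 m), the mid-elevation belt 25 bees from 5 sites (1140 to 1423 m) and the highland belt 26 bees from 5 sites (1579 to 1930 m). Livestock grazed 3 lowland sites, all 5 mid-elevation sites and 1 highland site, which gave 45 bees from grazed and 36 from ungrazed sites, so that belt and grazing were unevenly combined. Lowland bees were divided into 17 caught in warm and 13 caught in cool weather, as the study's tables classify them. Only T4, with 2 warm and 3 cool bees, held both classes at 1 site. No group carried a treatment or a genetic change, and the bees were wild workers of unstated age. Bees of 1 site shared their place, their colonies were not known, and the residual correlation of bees within a site was 0.105 over all genes (estimated with limma).

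The counts summed to between 15700759 and 33784279 per bee, and the 32 genes together took from 0.0916% to 0.295% of them. Expression is given as CPM, the count of a gene relative to the scaled total of its library, and levels of different genes are compared only as CPM per kilobase of exon. Markers of the dissected tissues were present: the summed level of 13 genes found by flight muscle names ranged from 2805 to 42865 CPM in lowland, 2275 to 20546 CPM in mid-elevation and 3226 to 15663 CPM in highland bees. By its name 1 of them is a non-muscle myosin heavy chain, and without it the lowland range was 2646 to 42791 CPM. Of the fat body, only 3 genes had a name (2 vitellogenins and 1 hexamerin), and their summed level ranged from 8.37 to 4559 CPM. Although the gut had been removed, 7 genes named peritrophin or chymotrypsin, which the insect midgut makes, summed to between 0.639 and 71388 CPM per bee. Libraries H2 bee 5 and Wmb1 bee 5 had the lowest median correlation to the others (0.856 and 0.867, against a median of 0.902 over all bees). By this measure the step to the next bee was small, with 0.872 for H6 bee 6. These libraries stood apart by their flight muscle score, the mean centred log2 CPM of the flight muscle names, with 2.45 and 2.68. The next highest score was 1.66 in Wmb2 bee 5. In such bulk samples fewer cells of a type and less RNA per cell cannot be told apart.

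The levels of the 32 genes spanned more than 2 orders of magnitude. LOC100642495 was the highest with a mean of 107 ± 28.9 CPM per kb (SD, n = 81), followed by neutral alpha-glucosidase AB (LOC100644473) at 96.4 ± 24.3 CPM per kb and LOC100647725 at 96.1 ± 18.2 CPM per kb. At the low end stood LOC100642563 at 2.75 ± 1.17 CPM per kb, glycoprotein 3-alpha-L-fucosyltransferase A (LOC100642198) at 1.27 ± 1.12 CPM per kb and LOC100650120 at 0.287 ± 0.146 CPM per kb. In 28 of the 31 neighbouring pairs of this order the means were closer than the larger SD of the pair, so that only coarse steps in the order exceed the spread between bees. 17 of the 32 genes lay above the median of all tested genes (11.8 CPM per kb). The counts of 6 genes were fractions in most bees (LOC100642495, LOC100647541, LOC100643573, LOC105666302, LOC100642267 and LOC100648803, from 77.8% of bees for the first to 50.6% for the last), since reads that fit several genes or places were divided by the authors, and their levels are accordingly uncertain.

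**Figure D1:**
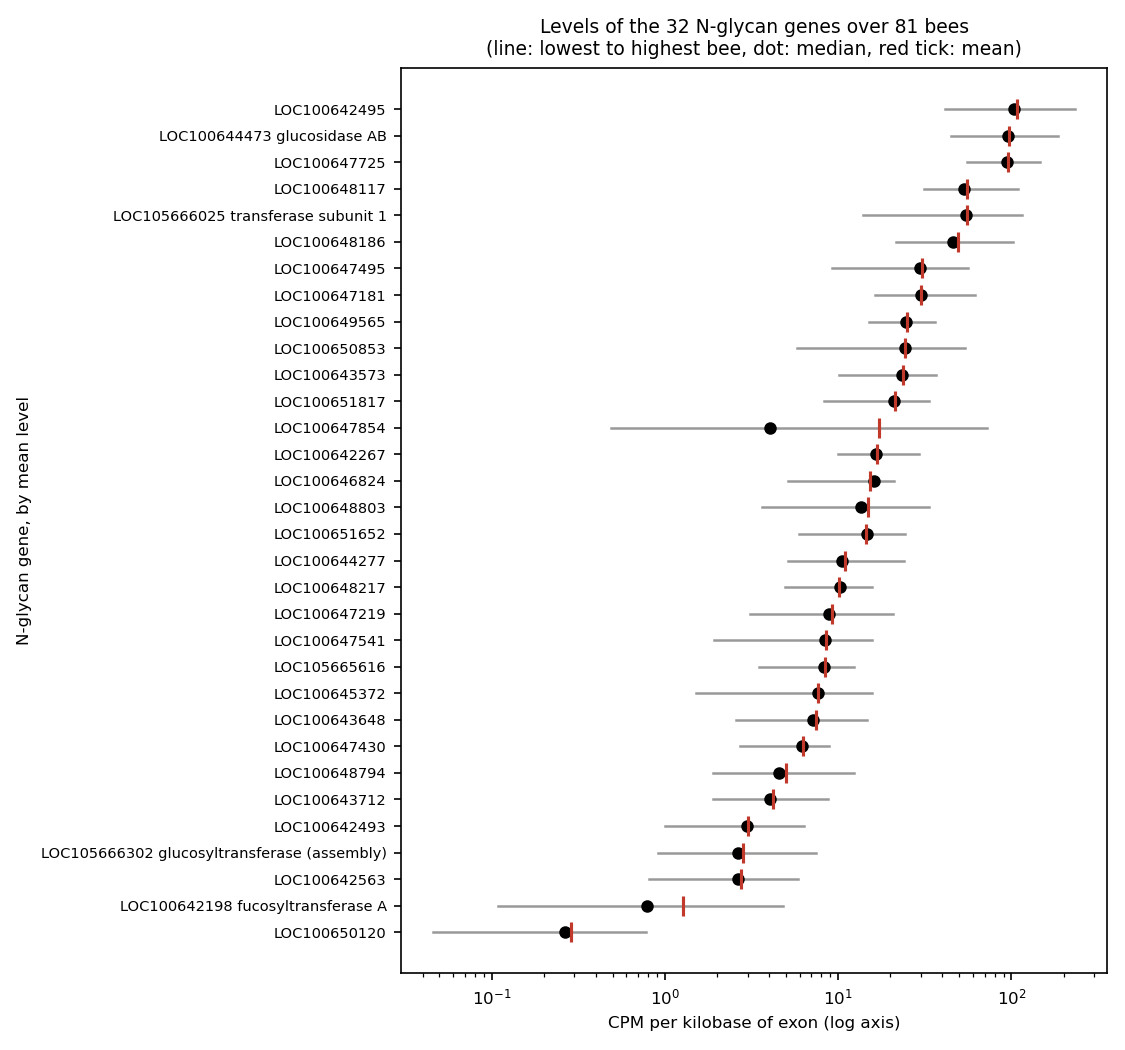
Levels of the 32 N-glycan genes in CPM per kilobase of exon on a log axis, ordered by mean, with the range over 81 bees as a line, the median as a dot and the mean as a red tick. LOC100642495, glucosidase AB and LOC100647725 lead with means of 107, 96.4 and 96.1, LOC100650120 is last at 0.287, and LOC100647854 and the fucosyltransferase have ranges far wider than the rest.

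The genes also differed in how much they varied between bees. The least variable were LOC100647430, LOC100647725 and LOC100642267, with coefficients of variation between 18.6% and 19.5%, and the most variable were LOC100647854 (112%), fucosyltransferase A (88.7%) and LOC100650120 (51.0%). The median was 31.2% over the 32 genes and 32.9% over all tested genes. LOC100647430 ranged from 10.96 to 35.9 CPM over all bees and LOC100642267 from 25.2 to 73.9 CPM, so that every bee expressed them. LOC100650120 ranged from 0.0766 to 1.28 CPM, which is few reads per library.

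For assembly of the chain, 1 enzyme was named: dolichyl pyrophosphate Man9GlcNAc2 alpha-1,3-glucosyltransferase (LOC105666302), which adds the first glucose to the lipid-linked chain. It was a low gene with a median of 3.83 CPM in the lowland (1.51 to 9.01, n = 30), 4.67 CPM at mid-elevation (1.96 to 8.23, n = 25) and 4.22 CPM in the highland (2.28 to 12.4, n = 26). The belts overlapped over nearly their whole range. Warm bees had a median of 4.89 CPM (1.51 to 9.01, n = 17) and cool bees 3.48 CPM (1.59 to 5.49, n = 13). This gene overlaps another gene (LOC100647908) on the same strand, so that some of its reads could belong to that gene.

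For transfer to proteins, the named member was subunit 1 of the dolichyl-diphosphooligosaccharide--protein glycosyltransferase (LOC105666025), a part of the oligosaccharyltransferase complex. Its median was 105 CPM in the lowland (29.1 to 197), 139 CPM at mid-elevation (43.8 to 240) and 106 CPM in the highland (42.1 to 179). Warm bees had a median of 138 CPM (38.4 to 197) and cool bees 86.0 CPM (29.1 to 158). The lowest values were those of the libraries that stood apart, Wmb1 bee 5 with 29.1 CPM among the cool bees and H2 bee 5 with 38.4 CPM among the warm bees. At site T4 alone, the warm bees had 107 and 146 CPM and the cool bees 77.7, 81.2 and 86.0 CPM, without overlap.

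For trimming, neutral alpha-glucosidase AB (LOC100644473), the catalytic subunit of the glucosidase that removes inner glucoses and so takes part in glycoprotein folding control, was the gene with the most reads of the 32. Its median was 340 CPM in the lowland (161 to 516), 357 CPM at mid-elevation (205 to 665) and 330 CPM in the highland (201 to 453). Warm bees had a median of 366 CPM (161 to 516), against 301 CPM (173 to 462) in cool bees. The belts lay closer together than the bees within them, with SDs from 72.7 to 100.4 CPM per belt.

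For later remodelling, glycoprotein 3-alpha-L-fucosyltransferase A (LOC100642198), which in insects adds fucose to the chain's innermost sugar, varied 44.1-fold between bees. Its median was 1.95 CPM in the lowland (0.504 to 16.9), 3.27 CPM at mid-elevation (0.711 to 10.9) and 4.10 CPM in the highland (0.383 to 16.7). Warm bees had a median of 6.58 CPM (0.756 to 16.9), against 1.41 CPM in cool bees (0.504 to 5.01). At T4 the warm bees had 1.55 and 7.13 CPM and the cool bees 1.41, 1.67 and 2.56 CPM, which overlapped.

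The member most like fucosyltransferase A was LOC100647854 (r = 0.77 over all bees). Its bees were divided at 10 CPM into a lower and an upper level. In 41 bees it lay between 1.01 and 8.34 CPM (median 1.99), and in the other 40 between 12.99 and 149 CPM (median 65.7). Both levels occurred at every site except Wma2, where all 5 bees had the upper, and T5, where all 5 had the lower. The upper level was found in 10 of 30 lowland, 13 of 25 mid-elevation and 17 of 26 highland bees. It was found in 9 of 17 warm bees and in 1 of 13 cool bees, and in 20 of 45 bees from grazed and 20 of 36 from ungrazed sites. Fucosyltransferase A had a median of 7.73 CPM (0.693 to 16.9) in the 40 bees with the upper level of LOC100647854 and of 1.38 CPM (0.383 to 3.84) in the 41 with the lower. Within the levels the 2 genes were hardly alike, with r = 0.16 in the 40 bees and 0.08 in the 41. The ranges overlapped, since 5 bees with the upper level lay at or below the 3.84 CPM that the bees with the lower level reached. These were H6 bee 5, H6 bee 9, Wma3 bee 1, Wmb4 bee 2 and Wmb2 bee 2, with 1.003, 0.693, 0.939, 1.68 and 3.27 CPM of fucosyltransferase A.

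The levels of LOC100647854 coincided with those of the gut-type genes. The gut-type score, the mean centred log2 CPM of the 7 peritrophin and chymotrypsin genes, lay between 2.17 and 4.34 in the 40 bees with the upper level and between -5.90 and 1.84 in the 41 with the lower, without overlap. 6 of the 7 genes had a higher mean in the 40 bees. In CPM, the 7 genes summed to a median of 36286 (9674 to 71388) in the 40 bees and 6.77 (0.639 to 10299) in the 41. By belt, the median score was -4.22 in the lowland, 2.77 at mid-elevation and 3.26 in the highland, and it was 2.88 in warm and -4.61 in cool bees. Of the other 30 members, 25 had a higher mean log2 CPM in the 40 bees, with a median difference of 0.18. The share of all genes that were higher in these bees was not computed, so this count is not read as a trait of the members. Across bees, LOC100647854 correlated with the score at r = 0.92 and fucosyltransferase A at r = 0.69. The fits with this score as a covariate, given below, therefore take out much of the variation of these genes themselves. They cannot show what part gut-type transcripts had in the differences between groups, which was not tested.

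**Figure D2:**
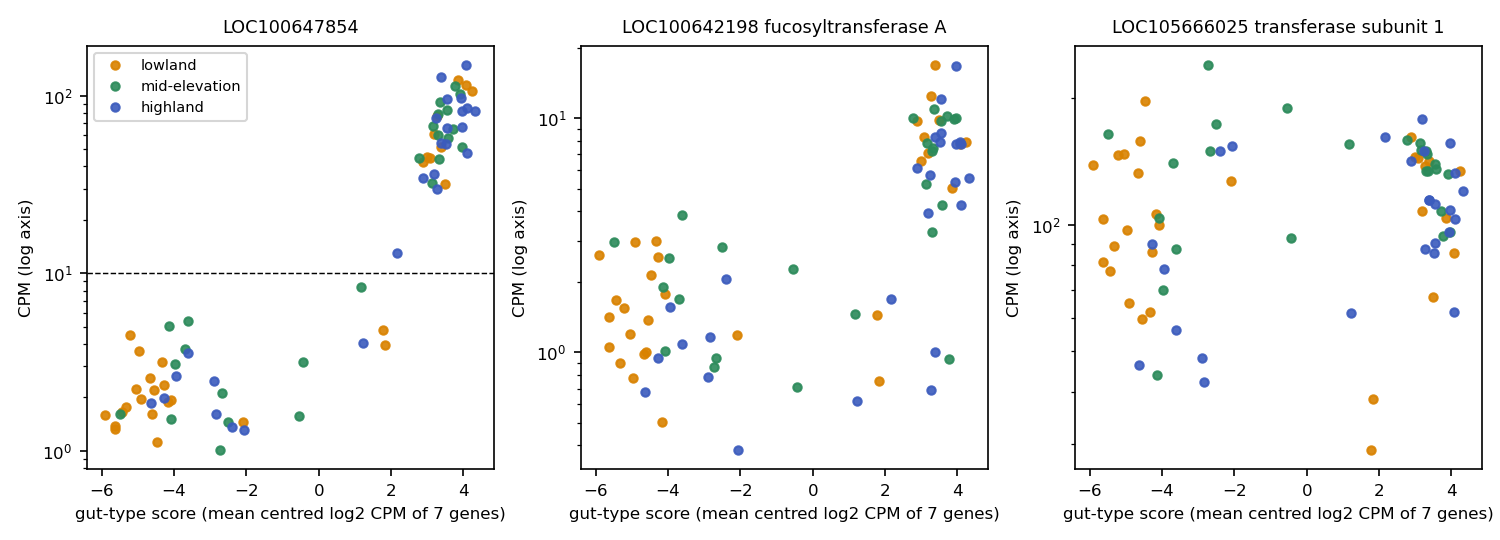
CPM (log axis) of LOC100647854, fucosyltransferase A and oligosaccharyltransferase subunit 1 in each of 81 bees against the gut-type score, with colours for the belts and a dashed line at 10 CPM. LOC100647854 exceeds 10 CPM only at scores of at least 2.17, fucosyltransferase A is mostly higher there, with 5 of those 40 bees at or below the 3.84 CPM reached by the other 41, and subunit 1 varies at both ends of the score.

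Highland against lowland sets the ends of the gradient against each other. Its fold changes are the sums of those of the 2 belt comparisons that chose the genes, so that neither its calls nor its medians are independent of that choice. With thresholds in edgeR's quasi-likelihood F test of an adjusted p under 0.05 (Benjamini-Hochberg over 9475 genes) and an absolute log2 fold change of 0.5 or more, 1 of the 32 genes was called, beside 0.686% of all tested genes. Of the 32 genes 12 lay above 0, beside 52.1% of all genes, with a median log2 fold change of -0.05, beside 0.01 over all genes. LOC100647854 lay farthest above 0 (0.91, standard error 0.563), and with the gut-type score as a covariate its log2 fold change was -0.27 (standard error 0.249).

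The gene called was LOC100648803, which has no name at hand. It ranged from 28.5 to 160 CPM in highland bees (median 87.1, n = 26) and from 56.8 to 246 CPM in lowland bees (median 118, n = 30), so that the belts overlapped widely. The difference was -0.52 ± 0.145 on the log2 scale (standard error). The site means were 100.2, 99.1, 73.9, 152 and 81.4 CPM at the highland sites H5, Wmb4, H6, Wmb5 and Wma6. At the lowland sites T4, T3, T5, Wma1, Wmb1 and H2 they were 119, 94.7, 83.9, 138, 189 and 160 CPM. Within the lowland, the grazed sites Wma1, Wmb1 and H2 lay above the ungrazed sites T4, T3 and T5. Within the highland, the only grazed site, Wmb4, lay below the ungrazed sites Wmb5 and H5 and above H6 and Wma6. With grazing as a covariate the log2 fold change between the belts was -0.31 and the call was lost. It was also lost with counts summed per site (-0.37), without the libraries H2 bee 5 and Wmb1 bee 5 (-0.46) and without any 1 of 10 sites, where the log2 fold change ranged from -0.38 (without H6 or Wmb1) to -0.62 (without T5).

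LOC100647219 and LOC100648794 came next in the order of p, and neither passed the thresholds. LOC100647219 ranged from 2.28 to 11.8 CPM in the highland (median 4.99) and from 1.78 to 9.42 CPM in the lowland (median 4.22), and differed by 0.32 ± 0.161 on the log2 scale (standard error). LOC100648794 ranged from 3.96 to 22.96 CPM in the highland (median 8.61) and from 3.55 to 17.4 CPM in the lowland (median 7.82), and differed by 0.24 ± 0.143. Without site H6, which held the highest bee for each of them, the log2 fold changes were 0.05 for LOC100647219 and 0.04 for LOC100648794.

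**Figure D3:**
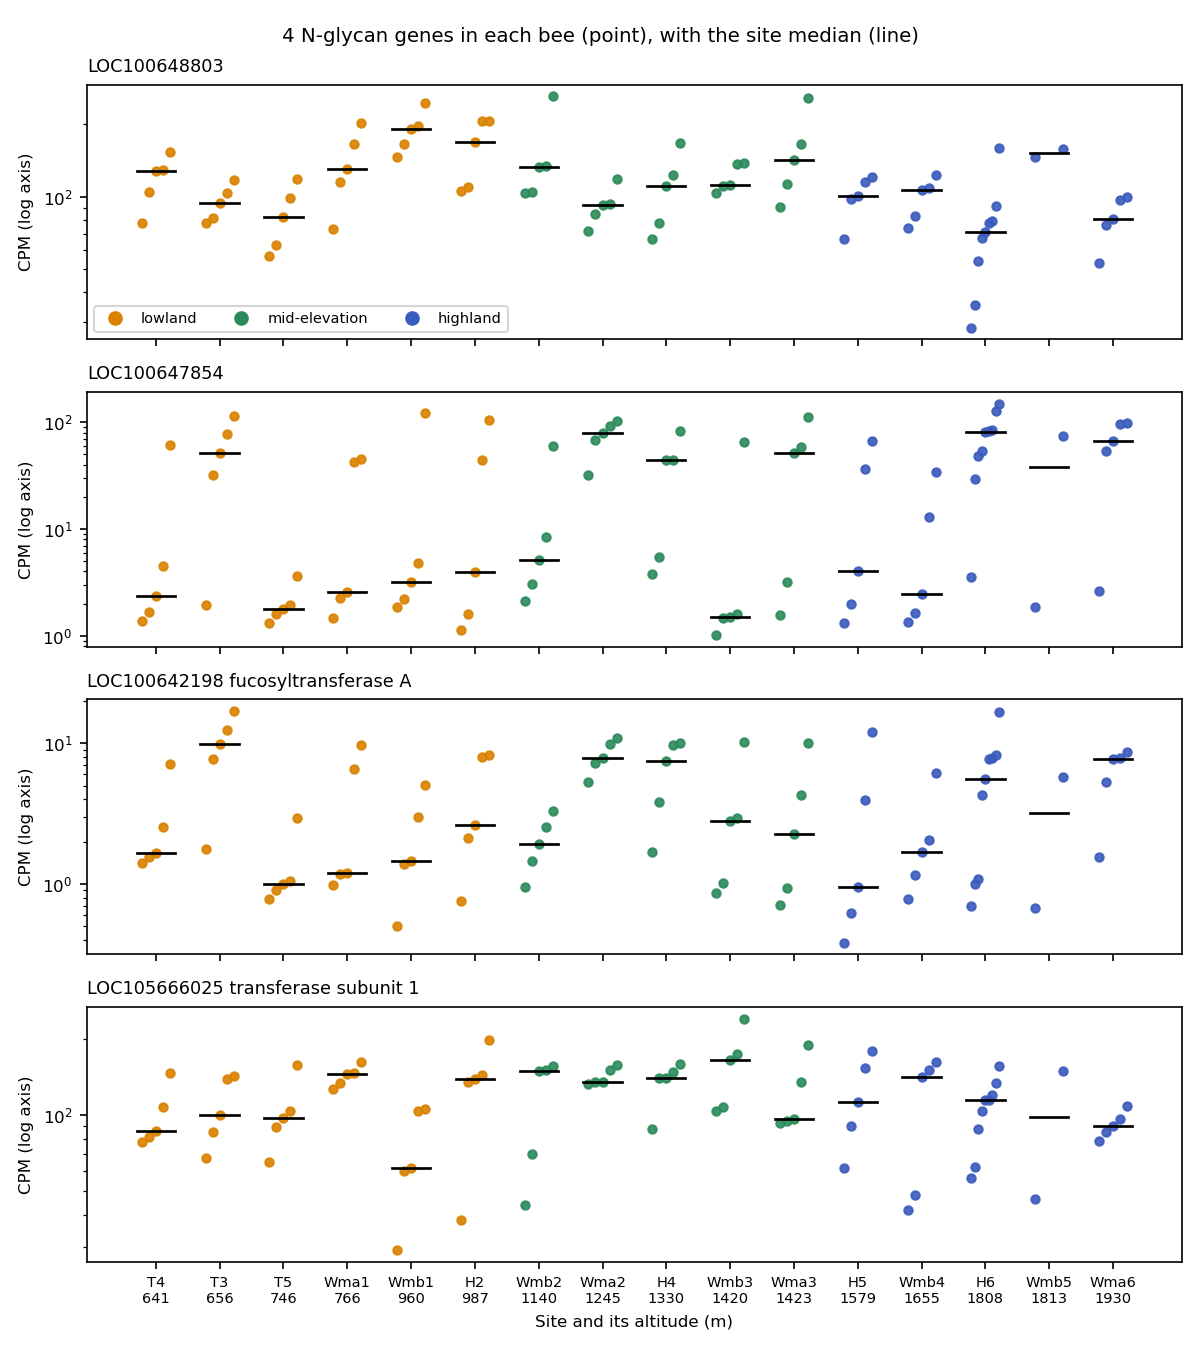
CPM (log axis) of LOC100648803, LOC100647854, fucosyltransferase A and oligosaccharyltransferase subunit 1 in each bee, by site in order of altitude, with site medians as lines. LOC100648803 overlaps between the belts, and at most sites LOC100647854 has bees both under 8.34 and above 12.99 CPM.

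Differences among sites within a belt were tested where neither belt nor grazing varied. Among the 5 mid-elevation sites, all grazed and with 5 bees each, edgeR called 0 of the 32 genes, against 0.22% of all 9541 genes tested, with 7 of 32 at an unadjusted p under 0.05, against 15.6% of all genes. LOC100648186 had the smallest p. Its values were 26.7 to 53.8 CPM at Wma2 (median 38.4), 23.2 to 39.0 CPM at Wmb3 (median 30.7), 21.6 to 31.2 CPM at H4 (median 28.2), 19.3 to 34.6 CPM at Wma3 (median 27.2) and 17.7 to 33.0 CPM at Wmb2 (median 20.7). Site Wma2 was high and site Wmb2 low, with overlap between them (F = 5.52, adjusted p = 0.124 from edgeR).

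LOC100647495 and LOC100645372 came next, both with an adjusted p of 0.153 from edgeR. LOC100647495 was low at Wmb2, with 23.6 to 45.6 CPM, and high at H4, with 48.7 to 77.9 CPM, and these sites did not overlap (F = 4.99). LOC100645372 was likewise low at Wmb2, with 4.70 to 14.2 CPM, and ranged from 14.5 to 20.5 CPM at Wmb3, again without overlap (F = 4.95). The likelihood ratio test of DESeq2 called these 3 of the 32 genes among the mid-elevation sites. It called 496 genes in all, of the 9541 that passed the filter on low counts. The adjusted p values from this test were 0.0177 for LOC100648186, 0.0242 for LOC100645372 and 0.0403 for LOC100647495.

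Among the 4 ungrazed highland sites (21 bees), edgeR also called 0 of the 32 genes, against 0.0207% of 9684 tested genes, with 2 of 32 at an unadjusted p under 0.05, against 9.82% of all genes. DESeq2 called 0 of the 32 as well, and its count over all genes is given in the last section. The smallest p belonged to LOC100651652, with 27.3 to 32.2 CPM at H5, 11.6 and 22.6 CPM at Wmb5, 16.1 to 27.9 CPM at Wma6 and 15.9 to 38.4 CPM at H6 (F = 3.95, adjusted p = 0.430 from edgeR). H5 lay above Wmb5 without overlap and overlapped with the others. LOC100647219 (F = 3.40, adjusted p = 0.468) and the glucosyltransferase LOC105666302 (F = 3.09, adjusted p = 0.510) followed, both with low values in the 2 bees of Wmb5 (3.04 and 3.70 CPM, and 2.28 and 3.01 CPM).

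In the comparisons that gave the lists, the genes moved mostly one way, as their choice implies. For mid-elevation against lowland, 27 of 32 log2 fold changes were above 0, beside 49.7% of all genes, with a median of 0.14 beside -0.001 over all genes. LOC100647854 (0.59, standard error 0.568), LOC100642563 (0.54, standard error 0.160) and LOC100647219 (0.46, standard error 0.162) differed most, and with the gut-type score as a covariate the value of LOC100647854 was -0.16. LOC100642563 ranged from 1.83 to 5.82 CPM at mid-elevation (median 3.30), against 0.870 to 6.29 CPM in the lowland (median 2.34). Most bees of both belts thus lay in the same range. Of the 12 tested genes with flight muscle names 2 were above 0, with a median of -0.39, although the median bee's muscle score was -0.08 at mid-elevation and -0.26 in the lowland. Their part in the shift was not tested.

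For highland against mid-elevation, 4 of 32 log2 fold changes were above 0, beside 51.3% of all genes, with a median of -0.16 beside 0.005 over all genes. LOC100648803 (-0.45, standard error 0.150), LOC100648186 (-0.37, standard error 0.118) and oligosaccharyltransferase subunit 1 (-0.35, standard error 0.153) differed most. LOC100648186 ranged from 11.4 to 35.9 CPM in the highland (median 23.05) and from 17.7 to 53.8 CPM at mid-elevation (median 28.7). With the gut-type score as a covariate, fucosyltransferase A had a log2 fold change of -0.45, beside -0.05 without it, and LOC100647854 one of -0.10, beside 0.33. Of the 12 flight muscle names 10 were above 0, with a median of 0.20, and their part was not tested. The mid-elevation bees enter both of these comparisons.

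Warm against cool sampling in the lowland gave the largest shift, with 29 of 32 log2 fold changes above 0, beside 49.6% of all genes, and a median of 0.30, beside -0.003 over all genes. Fucosyltransferase A (1.65, standard error 0.439), LOC100647854 (1.58, standard error 0.833) and the glucosyltransferase LOC105666302 (0.55, standard error 0.183) differed most. With the gut-type score as a covariate, the log2 fold change was 0.36 (standard error 0.358) for fucosyltransferase A and 0.00 (standard error 0.312) for LOC100647854. In that fit the median over the 32 genes was 0.35. The flight muscle score moved the other way, with a median of -0.77 in warm and -0.19 in cool bees (-0.87 and -0.18 without the non-muscle myosin), and 10 of its 13 gene names were taken from the study's lists of regulated genes. Its part in the shift was not tested. At T4, where both classes share a site, 18 of 32 genes were higher in the warm bees, with a median difference of 0.06 in mean log2 CPM. The share over all genes at T4 was not computed.

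For grazed against ungrazed sites, 28 of 32 log2 fold changes were above 0, beside 50.8% of all genes, with a median of 0.09 beside 0.003 over all genes. Farthest from 0 was LOC100648803 (0.52, standard error 0.117), which ranged from 66.8 to 263 CPM at grazed sites (median 118, n = 45) and from 28.5 to 160 CPM at ungrazed sites (median 92.8, n = 36). LOC100647854 (-0.47, standard error 0.470) and fucosyltransferase A (-0.27, standard error 0.298) followed with fold changes below 0, and with the gut-type score as a covariate they were -0.29 and -0.05. Of the 12 flight muscle names 9 were above 0, with a median of 0.33, and their part was not tested.

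**Figure D4:**
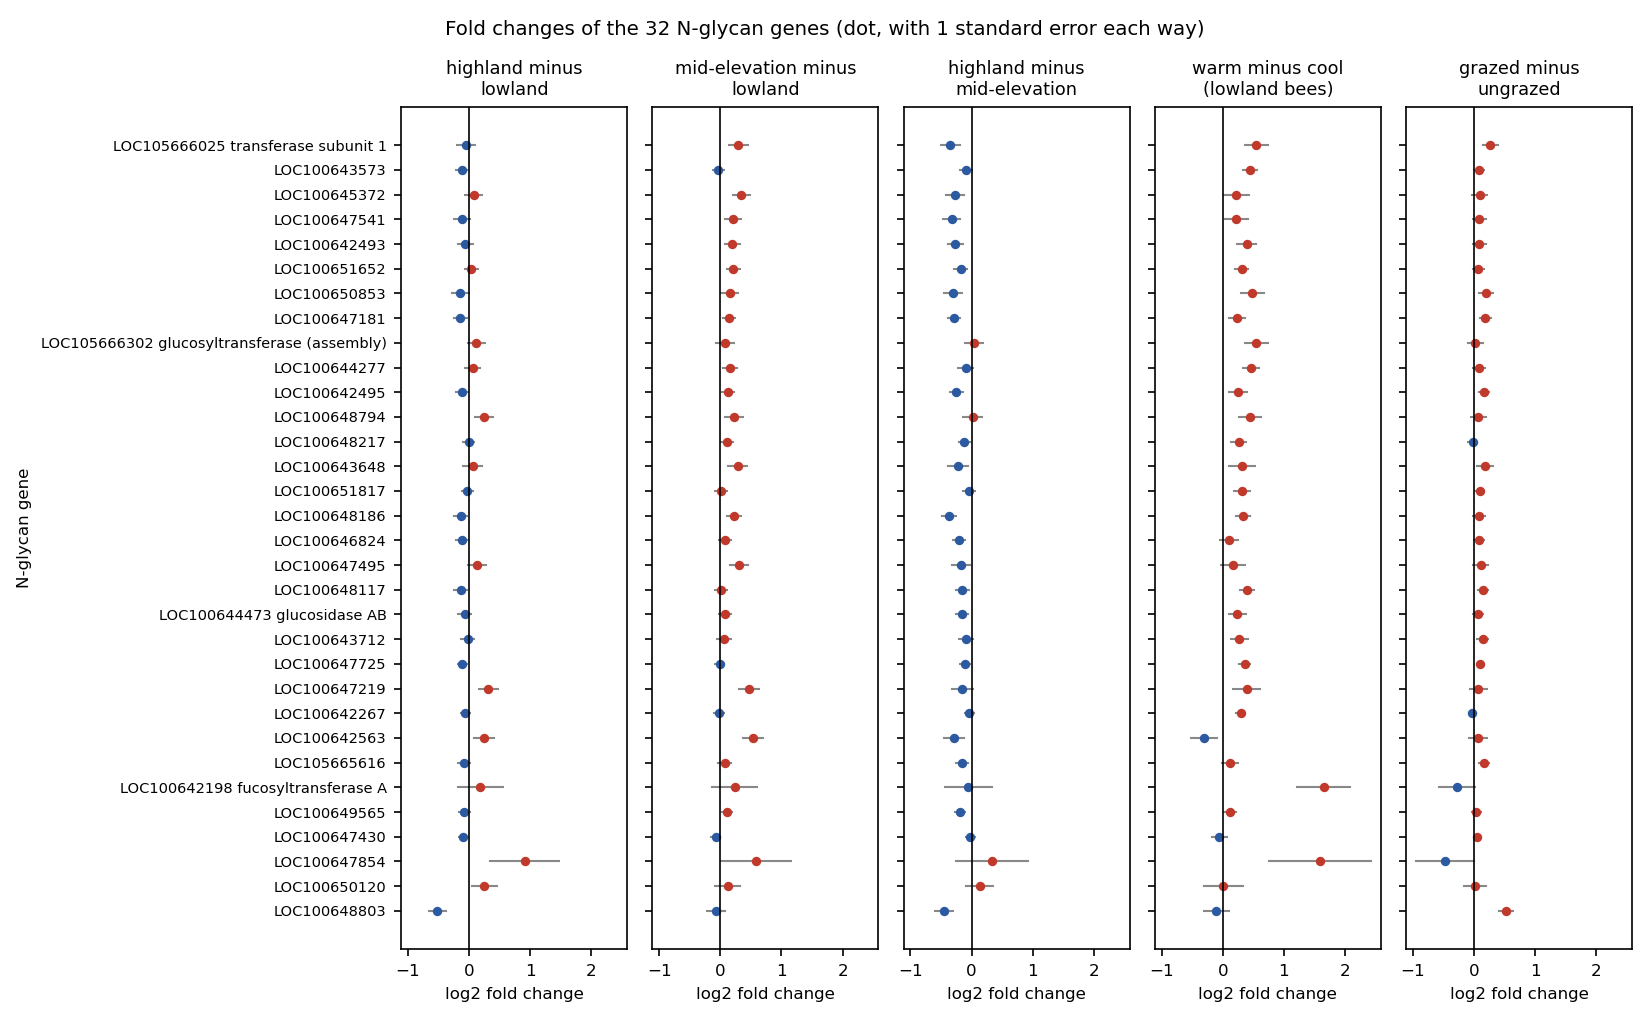
Log2 fold changes of the 32 N-glycan genes in 5 comparisons, with 1 standard error each way and red for values above 0, blue for values below it. Medians are -0.05, 0.14, -0.16, 0.30 and 0.09 from left to right, and LOC100648803 lies lowest in the first panel and highest in the last.

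Across bees, most members varied together. The median correlation of log2 CPM over the 496 pairs of members was 0.39 across 81 bees, against -0.01 over all pairs of tested genes, and it was 0.42 after site means had been removed. The genes were chosen from shifts between groups of these same bees, so the median over pairs is not independent of that choice. Removing site means takes out differences between sites, but not the choice itself. A first principal component held 45.1% of the variance of the standardised members. All genes of a bee come from 1 library and share its depth. LOC100650853 and LOC100642495 were the closest pair with r = 0.916, followed by glucosidase AB with LOC100650853 at r = 0.877. LOC100648803 was the member least like the rest, with a mean correlation of -0.18 to the other members. LOC100647495 and LOC100647725 lie on opposite strands with 234 bases between them, the only members that neighbour each other in the table.

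The common level differed between bees far more than between belts. The median over the 32 genes of log2 CPM, each centred on its own mean, ranged from -1.0 to 0.52 in lowland, -0.55 to 0.58 in mid-elevation and -0.77 to 0.31 in highland bees, with medians of -0.002, 0.17 and -0.01. Wmb1 bee 5 and H2 bee 5 were the lowest of all bees and Wmb3 bee 5 the highest. By site, the median bee was highest at Wmb3 (0.30) and H2 (0.29) and lowest at Wmb1 (-0.35) and Wmb5 (-0.31). Sites accounted for a median of 29.6% of the variance of log2 CPM over the members and 27.2% over all genes, where 18.8% arises if sites do not matter. The members' mean level correlated with the flight muscle score at r = -0.60 (-0.62 without the non-muscle myosin), with the gut-type score at 0.50 and with the length slope at -0.48 (n = 81 bees). The length slope, the slope over genes of log2 CPM against log2 exon length within a bee, may reflect RNA quality. It was not compared with RNA quality values of the bees. The part of these 3 measures was not tested beyond the covariate fits.

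**Figure D5:**
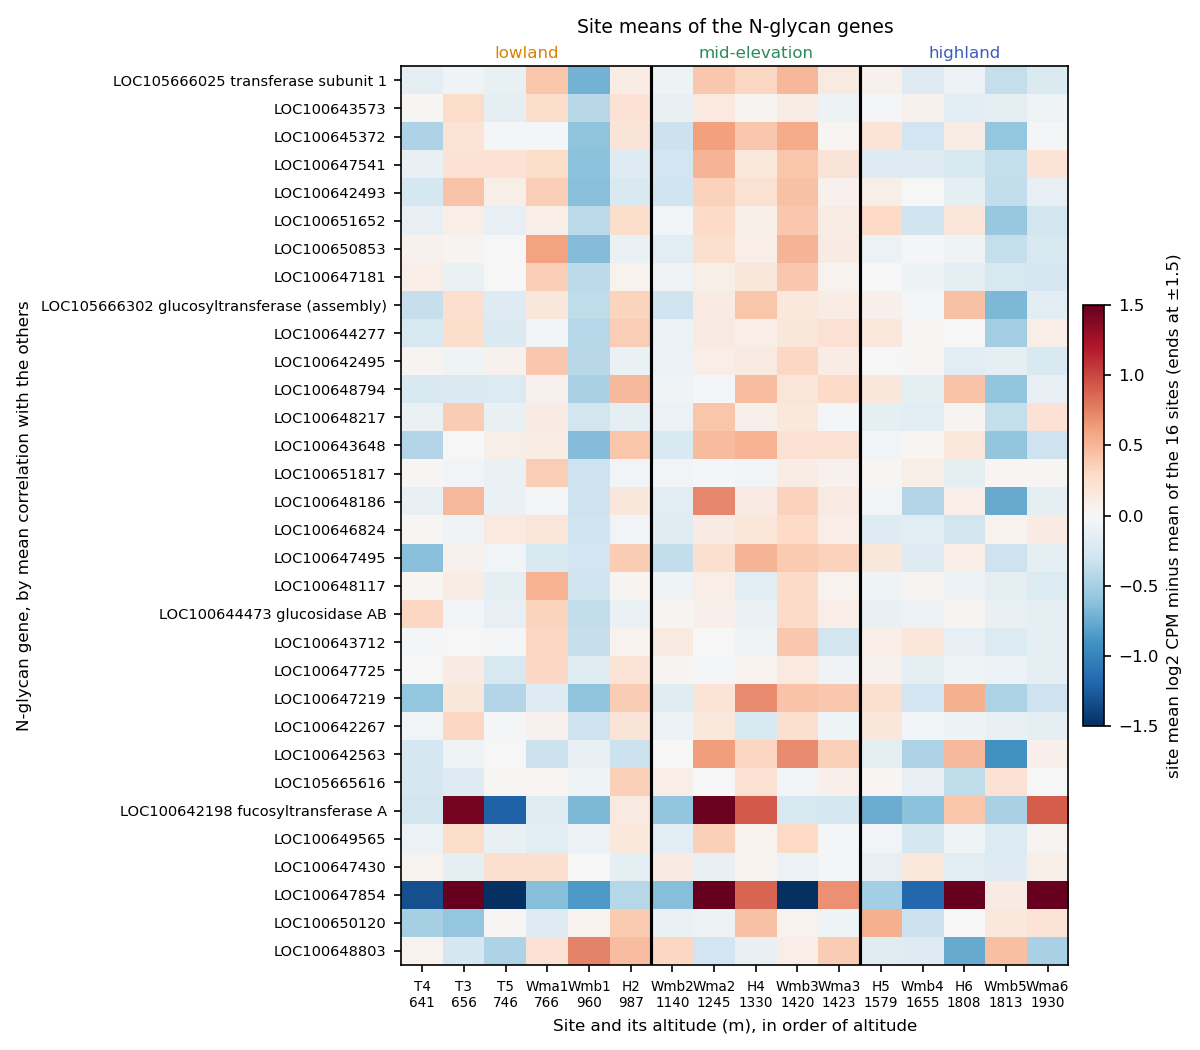
Site means of log2 CPM for the 32 N-glycan genes, each minus its mean over the 16 sites, with sites in order of altitude and genes by mean correlation with the others. Wmb1 is low for most genes, Wmb3 and Wma2 are high for most, and LOC100648803 in the last row is high at Wmb1 and low at H6.

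Oligosaccharyltransferase subunit 1 (LOC105666025) had the highest mean correlation with the other members (0.57), and the 10 genes most like it over 81 bees had r from 0.858 to 0.881. First was protein jagunal (LOC100649347), a membrane protein of the endoplasmic reticulum known from Drosophila, and the member LOC100650853 was among them (r = 0.871). An uncharacterized C20orf24 homolog (LOC100648164, r = 0.864) was the only other one of the 10 with a name.

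Genes of neighbouring steps, found by name, were few. Protein disulfide-isomerase A3 (LOC100648662) was the only one found for folding, and coatomer subunit delta (LOC100645041) the only one for vesicles. Neither was called by edgeR in any of the 5 comparisons. Their log2 fold changes for warm against cool were 0.45 (standard error 0.193) and 0.12 (standard error 0.0756). By N-glycan names 3 further genes were found: ER degradation-enhancing alpha-mannosidase-like protein 3, the dolichol synthase subunit DHDDS and hexosaminidase D-like. They need not belong to the pathway, since only their names were matched. Of these 3, edgeR called 0 in any of the 5 comparisons. Hexosaminidase D-like alone had an unadjusted p under 0.05 in edgeR, between grazed and ungrazed sites, and the share of all genes at that level was not computed. Of 4 genes for entry into the endoplasmic reticulum, 3 were called higher in warm bees, beside 4.06% of all 9305 genes called in either direction: the Sec61 channel subunit alpha (LOC100644740, log2 fold change 0.85, standard error 0.230), translocon-associated protein subunit beta (LOC100650833, 0.66, standard error 0.121) and signal peptidase complex subunit 1 (LOC100643201, 0.52, standard error 0.0885). Of 4 genes that supply sugar nucleotides, 2 were called higher in warm bees: UDP-N-acetylhexosamine pyrophosphorylase (LOC100642344, 1.37, standard error 0.356) and glutamine--fructose-6-phosphate aminotransferase 2 (LOC100648432, 1.24, standard error 0.342), which makes the first committed amino sugar. The names of 2 of the 4 entry genes and of all 4 sugar nucleotide genes came from the study's tables of regulated genes, so that their direction is not independent evidence. Of these 8 entry and sugar nucleotide genes edgeR called 0 for highland against lowland (0.686% of all genes) and mid-elevation against lowland (0.369%). It also called 0 for highland against mid-elevation (0.211%) and grazed against ungrazed sites (0.181%). In these 4 comparisons 1, 1, 1 and 2 of the 8 had an unadjusted p under 0.05 in edgeR. The share of all genes at that unadjusted level was not computed for them, so these counts have no background. In warm against cool, bees counted as independent samples although only site T4 held both classes. No fit with sites as a block or counts summed per site was run for it, so differences between sites are not parted from these calls.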

How the data were processed

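The deposited values are estimated counts, for which the authors trimmed reads with Cutadapt 2.5, aligned them with STAR 2.7.2b to the Bombus terrestris assembly Bter_1.0 and counted them on exons of protein-coding genes by strand with featureCounts 1.6.4, dividing reads that fit several genes or places into fractions. No normalization preceded deposition. Members were matched by gene identifier, and grazing and sampling temperature were taken from the study's tables. Counts were rounded, filtered with filterByExpr, scaled by TMM and tested by quasi-likelihood F tests in edgeR 4.0.16 (R 4.3.3), with the 3 belts in 1 model and bees as independent samples. Log2 CPM used a prior count of 2. The gut-type score covered 7 peritrophin and chymotrypsin genes. It left out trypsins, chymotrypsin inhibitors and a chymotrypsin-2 gene (LOC105665786) named only in the study's tables of regulated genes. The fit was run on simulated data with bees drawn independently. That simulation held no site effects, so it could not check how shared sites bear on the calls. Genes given with values per bee or group are the 3 with the smallest p in each test, the 3 highest and 3 lowest levels, the 3 most and 3 least variable, and the 3 with the largest fold change in each comparison that gave the lists. Members and lists were chosen with earlier results of these data known. Alternatives were DESeq2 1.42.0, limma 3.58.1 with sites as a block, counts per site, covariates, and sites or bees left out. No sequence or genome annotation was used here.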

Additional observations from a re-analysis of the deposited data

Results flagged for a closer look

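For the 18 genes given with values, site means of log2 CPM were examined within each belt for a site far from the others, which made 54 sets of sites, and chance alone sets a site apart in about 1 in 20. 1 set had such a site. LOC100650120, the lowest of the N-glycan genes, had a mean log2 CPM of -0.56 at the mid-elevation site H4, against -1.10 to -0.95 at the other 4 mid-elevation sites, and the gap to the nearest site was 0.715 of the whole range. The mean at H4 was 0.606 CPM, which rests on few reads per bee.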

How the results depend on the processing

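Highland against lowland depended on the settings. Of all genes 65 were called, against 156 without a fold-change threshold, 129 without a filter on low counts, 132 with DESeq2 without a prior, 176 without the libraries H2 bee 5 and Wmb1 bee 5 (chosen after seeing the data), 29 with the gut-type score, 6 with the length slope, 2 with only these belts in the fit, and 0 with limma and sites as a block or with counts summed per site. Leaving out 1 site gave 2 to 248 genes. With bee numbers as a replicate block it was 98 genes. The numbers only name bees, since same-numbered bees deviated together no more than weakly (correlation 0.0358, against -0.0197 for other bees). LOC100648803, the 1 N-glycan gene called, stayed below 0 throughout, and 0 N-glycan genes were called with the replicate block (-0.49), grazing, length slope (-0.45), gut-type score (-0.40), only these belts (-0.52), DESeq2 with its prior (-0.45), limma (-0.48), summed counts or without those 2 libraries. With the replicate block and with the prior it was the fold change that missed its threshold. Leaving out 1 site gave 0 or 1, with the call lost without H2, H5, H6, T4, T5, Wma1, Wma2, Wma6, Wmb1 or Wmb3 at log2 fold changes from -0.62 to -0.38. The cause was not tested.

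With the gut-type score the log2 fold change of LOC100647854 was -0.27 for highland against lowland, -0.16 for mid-elevation against lowland and -0.10 for highland against mid-elevation, against 0.91, 0.59 and 0.33 without it, and that of LOC100642198 was -0.59, -0.14 and -0.45, against 0.19, 0.24 and -0.05. Among mid-elevation sites 21 genes were called, against 13 with the gut-type score, 496 with DESeq2 (3 N-glycan genes) and 6 to 51 without 1 bee. Among ungrazed highland sites 2 genes were called, against 0 with the length slope or the gut-type score, 123 with DESeq2 and 0 to 30 without 1 bee. The median over the N-glycan genes kept its sign in the comparisons that gave the lists wherever it was computed. Those fits used DESeq2 size factors, the length slope or the gut-type score, or left out 1 site or the 2 libraries standing apart. The median was not computed with grazing as a covariate, counts summed per site or sites as a block. The comparisons chose the genes, so a kept sign is largely set by that choice. The values without the non-muscle myosin were also chosen after seeing the data.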
